A study of Mus musculus with 13 samples.

Results

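The passage from the germinal vesicle (GV) stage to metaphase II (MII) in oocytes that lack Nat10 was followed by ribosome profiling (Ribo-seq), with 3 Nat10-ZcKO GV libraries and 3 Nat10-ZcKO MII libraries, 6 of the 13 samples of the series and 6 of its 11 Ribo-seq libraries. Nat10-ZcKO mice carry floxed Nat10 alleles and Cre recombinase under the Zp3 promoter, which is active in growing oocytes, so the deletion is expected in the oocyte and not in the follicle cells around it. The other libraries came from wild type (WT) oocytes, with 3 GV and 2 MII Ribo-seq libraries and a pair of acRIP-seq libraries, an immunoprecipitation of RNA with an antibody to N4-acetylcytidine (ac4C) or with IgG. All Ribo-seq samples carry the label Rnase I, the nuclease that leaves the ribosome-protected fragments, and the labels give no strain or age. Genes were kept where the 6 libraries together held 20 or more counts on the coding sequence (CDS), which left 4851 of 22442 genes.

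A GV oocyte is arrested in prophase of meiosis I and is filled with mRNA made during growth. When meiosis resumes there is almost no transcription, so the protein supply is changed by reading stored mRNAs. Dormant mRNAs with short tails gain poly(A) through cytoplasmic polyadenylation elements in the 3′UTR and are taken up by ribosomes, while many mRNAs that served growth are deadenylated, leave the ribosomes and decay. NAT10 is the enzyme that writes ac4C on RNA. Ribo-seq counts fragments held by ribosomes, and no mRNA was measured in these 6 samples, so a change holds both the amount of an mRNA and its load of ribosomes, which cannot be told apart here.

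The GV libraries held 42360, 51709 and 277124 counts and the MII libraries 187967, 146726 and 159696, so a limit of 3 counts corresponds to between 10.8 and 70.8 CPM, the usual scaling of counts to the library total, covering counting error only. The GV libraries differed in content as well as in depth. A list of 19 oocyte markers took 0.0307%, 1.76% and 11.8% of the counts in GV replicates 1, 2 and 3, and 3.08%, 1.90% and 3.04% in the MII libraries, and 11 of the listed markers were at 0 in GV replicate 1 against 1 in GV replicate 3. Adipocyte markers moved the other way, with 1.82%, 0.410% and 0.0375% in GV and 0.0282% to 0.0607% in MII. Smooth muscle markers took 0.460%, 0.128% and 0.0729% in GV and 0.0125% to 0.0204% in MII, blood and immune markers at most 0.0543%, and granulosa and cumulus markers 1.01%, 0.282% and 0.279% in GV and 0.101% to 0.325% in MII. Over the 4851 genes the correlation of log2(CPM + 10) was 0.80 to 0.85 between MII libraries and 0.19 to 0.42 between GV libraries. In WT GV libraries the oocyte markers took 6.34% to 8.59%. GV replicate 1 of Nat10-ZcKO thus goes against its label, and GV replicate 2 lies below GV replicate 3 and the WT GV libraries. The comparison was therefore made with all 6 libraries and with GV replicate 3 as the only GV library. GV replicate 3 was kept for its oocyte marker counts, and Zp1, Zp2, Zp3, Padi6, Nlrp5, Ooep, Zar1 and Ybx2 are among those markers. That choice favors falls of these genes against replicate 3, so such falls are described and not taken as support. In these pooled samples fewer cells of a type and less RNA per cell cannot be told apart.

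Nat10 itself, on the minus strand of chr2:103721256-103761270 (GRCm38), had 4, 1 and 5 counts in GV and 6, 3 and 2 in MII. With all 6 libraries the log2 change from GV to MII was -0.09 ± 1.08 (SE, edgeR adjusted p = 0.966), so neither the deletion nor a change between stages can be read at this depth.

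**Figure D1:**
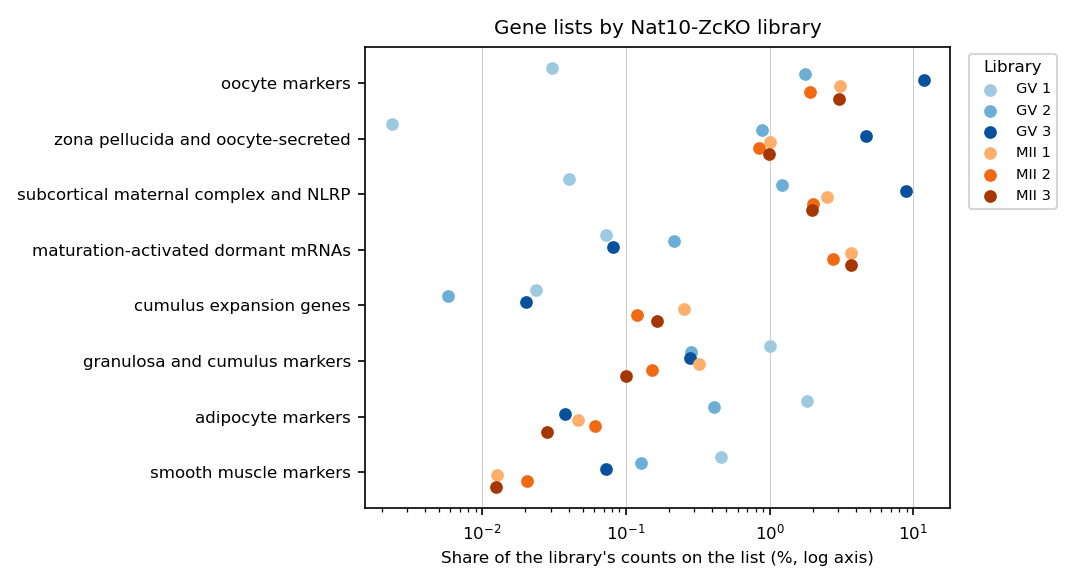
Share of each Nat10-ZcKO library's counts taken by gene lists (x axis, percent, log axis), with 1 row per list and 1 point per library, GV in blue and MII in orange. Oocyte markers range from 0.0307% to 11.8% among the GV libraries, while the dormant mRNAs lie at 0.0732% to 0.215% in GV and 2.75% to 3.71% in MII with no overlap.

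With all 6 libraries, 351 of 4851 genes (7.24%) differed between the stages in edgeR at an adjusted p under 0.05, 300 higher in MII (6.18%) and 51 lower (1.05%). This split depends on the scaling. Without TMM factors it was 218 higher and 149 lower, with the median log2 change of all genes at -0.46 in place of 0.07, and DESeq2 called 351 higher and 147 lower. The count also rests on single libraries, since without GV replicate 3 it was 982, and without GV replicate 2 or any MII library no gene passed in edgeR, with 815 to 1204 genes at an unadjusted p under 0.05. Against GV replicate 3 alone, 735 genes were higher in MII (15.2%) and 687 lower (14.2%), with the median of all genes at -0.01. In that fit the lone GV library is assumed to vary like the MII libraries, and DESeq2 called 756 genes in all. Both comparisons share the MII libraries and GV replicate 3 and do not support each other. In the 300 genes called higher with 6 libraries, GV replicate 3 lay below all 3 MII libraries in every case, and 299 were also higher against it (6.16% of all genes). Of the 51 called lower, GV replicate 3 lay above all MII libraries in 44, 24 were also called lower against it (0.495% of all genes), and in 35 GV replicate 1 or 2 had over 5 times the CPM of replicate 3. Such an excess over replicate 3 was also found in 52 of the 300 higher genes. At 3 counts a gene stands at 70.8, 58.0 and 10.8 CPM in GV replicates 1, 2 and 3, so few counts can give it. The shares of all genes in these positions were not counted, and GV replicate 3 is part of the 6-library fit. Nothing in the labels says that replicates came from separate animals or pools, so p-values measure the spread between these samples. Against GV replicate 3 alone they rest on the spread of the 3 MII libraries and hold no measure of GV variation. The GV libraries correlated at 0.19 to 0.42 with each other, and the MII libraries at 0.80 to 0.85. Below, a change is log2 of MII over GV replicate 3 with its SE and the adjusted p of edgeR, and the change over all 6 libraries follows where it is given. Where stages are said not to overlap, this describes the single gene, since the share of all genes without overlap was not counted. Shares of a list are read against the 15.2% higher and 14.2% lower of all genes.

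The genes best known for being read during maturation rose as a group. Of 18 listed maturation-activated dormant mRNAs, 16 were tested and 15 were higher in MII in either comparison, with a median change of 3.93 against GV replicate 3 and 4.41 with all 6 libraries. The exception was Cnot6l, a deadenylase subunit (1.52 ± 0.74, adjusted p = 0.117; 2.60 with 6 libraries, adjusted p = 0.0984). Il7 had no counts and Dcp2 had 8, so neither was tested. The count limit was set on the sum of the GV and MII libraries. Members with few GV counts, such as Fbxo43 and Ccnb1, reached it through their MII counts. The limit thus favors rises in this list, and the share of tested members called higher depends in part on it. The list was drawn up with earlier results of these data known. Several of these genes hold a cytoplasmic polyadenylation element, searched as TTTTAT or TTTTAAT on the transcript strand in the last 100 bases of the annotated 3′UTR (GENCODE M21, GRCm38). Stretches of 30 bases around it are shown for members described below, with the element in capitals. Orc6 holds it as well, and its stretch is not shown.
Plat, chr8:22782745-22782774, plus strand: gtatatttataTTTTAATctattttagttt
Bub1b, chr2:118641553-118641582, plus strand: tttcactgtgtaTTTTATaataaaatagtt
Btg4, chr9:51119797-51119826, plus strand: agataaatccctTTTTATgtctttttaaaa
Cnot7, chr8:40493038-40493067, minus strand: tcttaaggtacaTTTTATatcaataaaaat
Pan2, chr10:128321324-128321353, plus strand: aaataaaagtatTTTTATctcattagaaaa
Dcp1a, chr14:30527010-30527039, plus strand: caaatatatttTTTTAATaaaatttcaaaa
Wee2, chr6:40466784-40466813, plus strand: tgtaaataaagaTTTTATcttatccaaaga

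Plat, tissue plasminogen activator and the classic dormant mRNA of the mouse oocyte, was at 94.4, 541 and 129.9 CPM in GV and at 19791, 16234 and 19907 CPM in MII. All MII libraries lay far above all GV libraries, with group means of 255 ± 249 and 18644 ± 2088 CPM (SD, n = 3 each). The change was 6.96 ± 0.94 (adjusted p = 2.48e-06), or 6.90 ± 1.72 with 6 libraries (adjusted p = 0.0299). Bub1b, the spindle checkpoint kinase BUBR1, was at 236, 445 and 144 CPM in GV and at 6831, 4314 and 6024 in MII. The groups did not overlap, and the change was 5.10 ± 0.76 (adjusted p = 1.07e-05; 5.12 with 6 libraries, adjusted p = 0.0284). Mos, the kinase that starts the MAPK cascade of the MII arrest, had 0, 77.4 and 14.4 CPM in GV and 1346, 545 and 1121 in MII, again without overlap (5.87 ± 0.84, adjusted p = 6.24e-06; 5.70 with 6 libraries, adjusted p = 0.021). Within the list the changes against GV replicate 3 that passed ran from the 3.01 of Tpx2, a spindle assembly factor, and Tex19.1 to the 6.96 of Plat. Ccnb1, cyclin B1 and the activator of CDK1, rose from 2, 2 and 5 counts to 110, 47 and 120 (4.72 ± 0.80, adjusted p = 5.09e-05; 4.76 with 6 libraries, adjusted p = 0.021). The lowest MII library of Ccnb1 stood above the highest GV library. Orc6, Dazl and Fbxo43 were chosen after their values were seen. Orc6, a subunit of the origin recognition complex, Dazl, a germ cell RNA-binding protein, and Fbxo43, the EMI2 inhibitor of the anaphase-promoting complex, also passed in both comparisons. Fbxo43 had 0, 0 and 2 counts in GV against 39, 29 and 19 in MII.

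**Figure D2:**
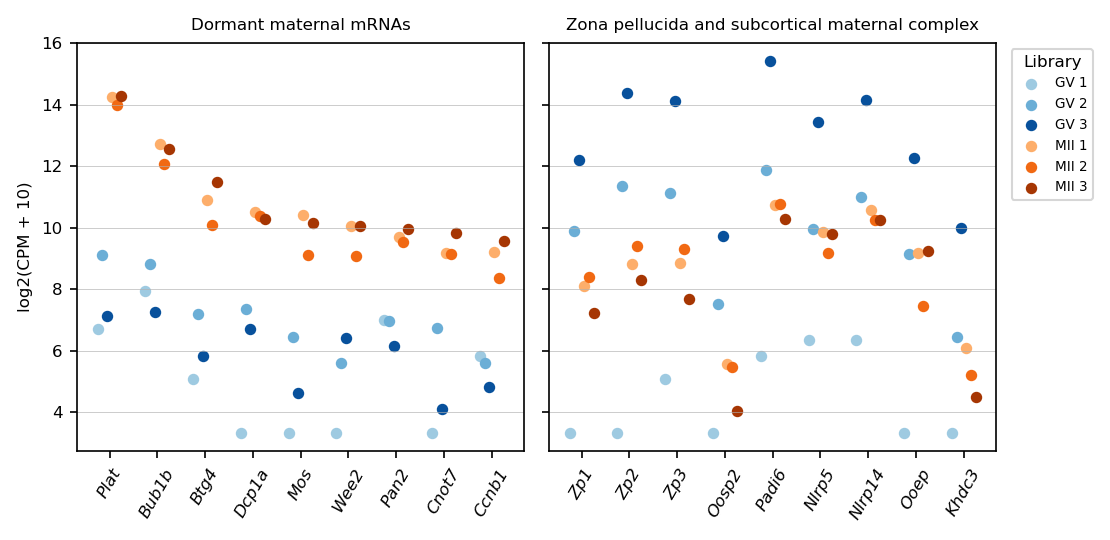
Values as log2(CPM + 10) of 9 dormant mRNAs (left) and 9 zona pellucida and subcortical maternal complex genes (right) in the 6 Nat10-ZcKO libraries, 1 point per library, GV in blue and MII in orange. All dormant mRNAs shown separate the stages in every library, while genes such as Zp2 and Padi6 are high in GV replicate 3, at 21329.8 and 44038 CPM, and lower in GV replicate 1 than in MII. The 9 dormant mRNAs were picked from the 16 tested, and the share of all genes with such separation was not counted.

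Of 15 tested genes for deadenylation and decay, 5 were higher in either comparison (33.3%), with a median change of 1.52, 1 was lower against GV replicate 3 and the others did not pass. Btg4, the adaptor that brings the CCR4-NOT deadenylase to maternal mRNAs, was at 23.6, 135 and 46.9 CPM in GV and at 1883, 1070.0 and 2855 in MII (5.19 ± 0.80, adjusted p = 1.56e-05; 5.44 with 6 libraries, adjusted p = 0.021). Cnot7, a catalytic subunit of CCR4-NOT, was at 0, 96.7 and 7.22 CPM and at 575, 559 and 889 (6.26 ± 0.88, adjusted p = 5.17e-06; 5.2 with 6 libraries, adjusted p = 0.0218). Neither gene overlapped between the stages. Pan2, the catalytic subunit of the PAN2-PAN3 deadenylase, changed by 3.59 ± 0.65 (adjusted p = 0.000117; 3.82 with 6 libraries), and Dcp1a, a decapping cofactor, by 3.61 ± 0.63 (adjusted p = 7.41e-05; 4.35 with 6 libraries), and both passed with 6 libraries (adjusted p = 0.0257 and 0.0332). These 4 genes are also in the list of dormant mRNAs. Cnot11, another CCR4-NOT subunit and the next of the list by counts, had a change of 0.11 ± 0.57 (adjusted p = 0.905).

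Of 19 tested regulators of stored mRNA, 8 were lower (42.1%) and 2 higher (10.5%) against GV replicate 3, with a median change of -1.41, whereas with 6 libraries 2 were higher and none was lower. Zar1, an RNA-binding protein of the oocyte mRNA store, was at 0, 851 and 3590.4 CPM in GV and at 516, 579 and 332 in MII. The MII values fell inside the span of the GV libraries, and the change was -3.15 ± 0.45 against replicate 3 (adjusted p = 5.75e-06) and -1.69 with 6 libraries (adjusted p = 0.449). Ybx2, the Y-box protein MSY2 that coats stored mRNA, changed by -3.73 ± 0.52 (adjusted p = 4.71e-06), and Eif4e1b, an oocyte form of the cap-binding protein, by -2.50 ± 0.45 (adjusted p = 9.35e-05), and neither passed with 6 libraries (-2.31 and -1.15, adjusted p = 0.212 and 0.553). Pabpn1l, an embryonic poly(A)-binding protein of oocytes, was one of the genes that rose, from 0, 116 and 36.1 CPM to 798, 259 and 971 (4.04 ± 0.78, adjusted p = 0.000253). It separated the stages and passed with 6 libraries as well (4.30, adjusted p = 0.0299).

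Genes of the cell cycle moved both ways. Of 16 tested for cyclins, CDK1 control and the MII arrest, 7 were higher (43.8%) and 4 lower (25%) against GV replicate 3, with a median of 0.75. With 6 libraries 5 were higher and none lower, but 4 higher and 3 lower without TMM factors and 5 and 3 in DESeq2. Wee2, the oocyte kinase that inhibits CDK1 and is needed to leave MII, was at 0, 38.7 and 75.8 CPM in GV and at 1048, 525 and 1046 in MII (3.33 ± 0.66, adjusted p = 0.000322; 4.47 with 6 libraries, adjusted p = 0.0285). Map2k1, the MEK1 kinase below MOS, rose by 3.35 ± 0.65 (adjusted p = 0.000264; 2.80 with 6 libraries, adjusted p = 0.046). Both genes had every MII library above every GV library. Cdk1 and Cdc25b, the phosphatase that activates CDK1, were named after their values were seen. Cdc25b had 2, 5 and 57 counts in GV and 0, 1 and 2 in MII, and the changes were -5.13 ± 0.87 for Cdc25b (adjusted p = 5.57e-05) and -4.00 ± 0.86 for Cdk1 (adjusted p = 0.000773), neither of which passed with 6 libraries (adjusted p = 0.0536 and 0.0624). Plk1, a mitotic kinase, did not pass in either (-0.68 ± 0.52, adjusted p = 0.342).

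Of 20 tested genes of the anaphase-promoting complex and the spindle checkpoint, 6 were higher (30%) and 1 lower (5%) against GV replicate 3, and 3 were higher with 6 libraries, with a median of -0.09 against replicate 3 that ran from -0.12 to 0.12 across scalings. Apart from Bub1b, Cdc20, the activator of the complex, was at 70.8, 0 and 46.9 CPM in GV and at 585, 286 and 457 in MII (3.02 ± 0.67, adjusted p = 0.000958; 3.86 with 6 libraries, adjusted p = 0.0315). Espl1, the protease separase, changed by 1.82 ± 0.57 (adjusted p = 0.0153) and Mad2l1, a checkpoint protein, by 2.52 ± 0.70 (adjusted p = 0.00715), and neither passed with 6 libraries (adjusted p = 0.0984 and 0.0701). Pttg1, securin, which holds separase inactive, was the gene that fell, from 2905 CPM in GV replicate 3 to 1516, 532 and 1697 in MII (-1.39 ± 0.52, adjusted p = 0.0433). The other GV libraries had 0 and 309 CPM of Pttg1, below MII, and the change with 6 libraries was 0.13 (adjusted p = 0.962). Among 24 spindle genes, 6 were higher (25%) and 4 lower (16.7%) against replicate 3 (median 0.53), shares not far from those of all genes, and 4 were higher and none lower with 6 libraries. Prc1, which bundles microtubules of the midzone, rose from 118, 135 and 93.8 to 1761, 961 and 1421 CPM (3.67 ± 0.66, adjusted p = 9.59e-05; 4.16 with 6 libraries, adjusted p = 0.0257), and Kif23, a midzone kinesin, changed by 2.43 ± 0.58 (adjusted p = 0.00198; 3.55 with 6 libraries, adjusted p = 0.0726), while Ckap5, Pcnt and Numa1, general spindle and centrosome proteins, did not pass.

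**Figure D3:**
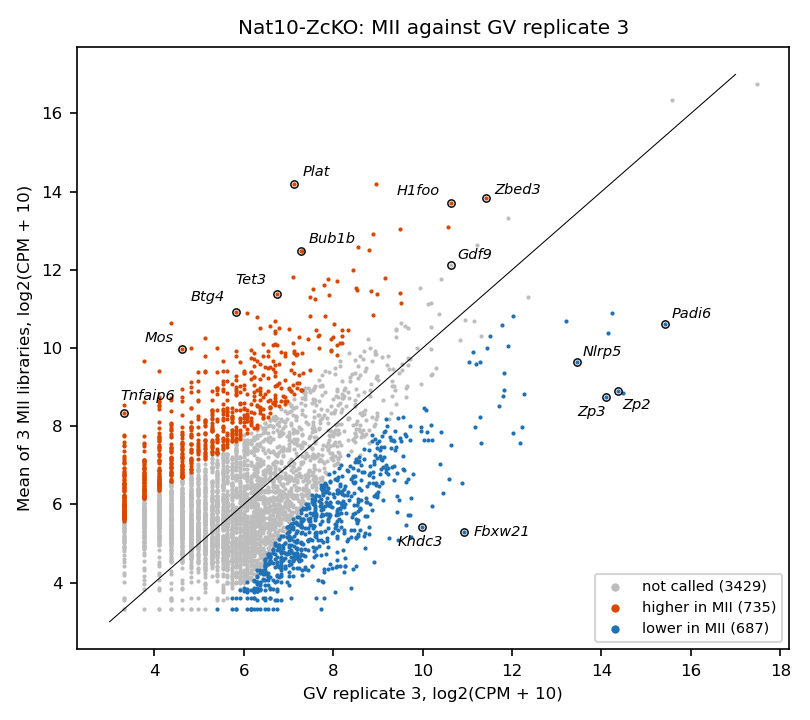
Each point is 1 of the 4851 genes, with log2(CPM + 10) in GV replicate 3 on the x axis and that of the mean of the 3 MII libraries on the y axis, orange for the 735 genes called higher in MII, blue for the 687 called lower and gray for the others, with a line of equal values. Plat, Bub1b and Mos lie far above the line, and Padi6, Zp2 and Zp3 far below it.

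Among 8 zona pellucida and oocyte-secreted genes, 4 were lower and 2 higher against GV replicate 3 (median -2.57), and with 6 libraries 1 was higher and none lower. Zp2, a structural protein of the zona and a sperm receptor, was at 0, 2611 and 21329.8 CPM in GV and at 442, 668 and 307 in MII. MII lay below GV replicates 2 and 3 and above replicate 1. Zp1, Zp2 and Zp3 are among the oocyte markers by which replicate 3 was kept, which favors falls against it. The change was -5.73 ± 0.53 against replicate 3 (adjusted p = 7.19e-09) and -4.19 with 6 libraries (adjusted p = 0.163). The change against replicate 3 was -5.65 ± 0.54 for Zp3 (adjusted p = 9.14e-09) and -4.52 ± 0.47 for Zp1 (adjusted p = 3.23e-08), other zona genes, and neither passed with 6 libraries (-4.11 and -3.04, adjusted p = 0.147 and 0.201). Gdf9, a growth factor that the oocyte sends to its follicle cells, was at 0, 1682 and 1573 CPM in GV and at 4421, 4280.1 and 4703 in MII. All MII libraries were above GV, but the change missed the threshold (1.31 ± 0.57, adjusted p = 0.0811; 2.33 with 6 libraries, adjusted p = 0.308). Oosp1, an oocyte-secreted protein, rose against replicate 3 (3.85 ± 0.68, adjusted p = 7.95e-05; 3.76 with 6 libraries, adjusted p = 0.085), and its relative Oosp3, named after its values were seen, had 0, 0 and 7 counts in GV and 138, 66 and 133 in MII and passed in both comparisons (4.52 ± 0.74 and 5.69). Oosp2 of the same family, also named after its values were seen, fell by 5.22 on the log2 scale against replicate 3 and did not pass with 6 libraries (-3.78, adjusted p = 0.0848).

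The subcortical maternal complex and the NLRP proteins, a protein store under the oocyte membrane that the early embryo needs, gave 10 lower and 2 higher of 14 tested against GV replicate 3 (median -2.75), and none either way in edgeR with 6 libraries, where DESeq2 called 2 higher and 1 lower, as many as had an unadjusted p under 0.05 in edgeR. Padi6, which builds the cytoplasmic lattices, was at 47.2, 3790.4 and 44038 CPM in GV and at 1686, 1731 and 1239.9 in MII (-5.05 ± 0.55, adjusted p = 6.29e-08; -3.49 with 6 libraries, adjusted p = 0.256). GV replicate 3 stood 28.4-fold above the mean of MII, and GV replicate 1 stood below every MII library. Padi6, Nlrp5 and Ooep are also among the oocyte markers by which replicate 3 was kept. Nlrp14, Nlrp5 and Ooep, members of the same store, changed by -4.00 ± 0.50, -4.03 ± 0.49 and -3.64 ± 0.52 against replicate 3, and by -2.46, -2.48 and -2.11 with 6 libraries (adjusted p = 0.344, 0.313 and 0.383). Zbed3 was 1 of the 2 genes of the list that rose against replicate 3, from 142, 2553 and 2739 CPM in GV to 16966, 13685 and 13188 in MII. Every MII library exceeded every GV library, and the change was 2.20 ± 0.67 against replicate 3 (adjusted p = 0.0135) and 3.27 with 6 libraries (adjusted p = 0.188). Nlrp4a was the other (1.69 ± 0.56, adjusted p = 0.0229; 2.90 with 6 libraries, adjusted p = 0.0845). Reads of the NLRP families can be split among near-identical copies, so their values are uncertain. The 3′ ends of these genes are shown with the polyadenylation hexamer in capitals for genes that fell, and with the element TTTTAT for Oosp3 and Zbed3, which rose. The stretches of Oosp3 and Zbed3 hold the hexamer AATAAA as well, in lower case, so it does not set the groups apart. Gdf9 and Nlrp4f, which were not called higher, hold TTTTAT too, as does Nlrp4a.
Zp1, chr19:10914289-10914318, minus strand: actcAATAAAccattgtttgaaaactcctg
Padi6, chr4:140727355-140727384, minus strand: agagccAATAAAgcatggtattctgaatgt
Nlrp5, chr7:23441893-23441922, plus strand: gaatgaAATAAAcacagcatttagaaaagc
Oosp3, chr19:11711829-11711858, plus strand: cacaacctataaataaaacaTTTTATtgta
Zbed3, chr13:95337812-95337841, plus strand: tttttttttaataaacTTTTATttatctgc

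Genes for sperm binding and egg activation had 7 lower and none higher of 12 tested against GV replicate 3 (median -2.30), with no call by edgeR or DESeq2 in 6 libraries and 2 lower at an unadjusted p under 0.05. They include Zp2 and Nlrp5. Astl, ovastacin, the protease that cleaves ZP2 after fertilization, went from 0, 348 and 3821 CPM in GV to 1128, 879 and 1152 in MII (-2.06 ± 0.46, adjusted p = 0.00115; -0.51 with 6 libraries, adjusted p = 0.853), and Izumo1r, the sperm receptor JUNO, from 0, 329 and 574 to 85.1, 177 and 68.9 (-2.62 ± 0.50, adjusted p = 0.000214; -1.35 with 6 libraries, adjusted p = 0.454). For both, MII lay between the GV libraries. Itpr1, the calcium release channel, did not pass (-0.88 ± 0.49, adjusted p = 0.18). Of 8 genes for meiotic arrest and gap junctions 2 were lower, Gnas, the stimulatory G protein that keeps cAMP high (-2.66 ± 0.48, adjusted p = 0.000101), and Akap1, an anchor of protein kinase A (-3.94 ± 0.66, adjusted p = 4.87e-05). With 6 libraries the changes were -1.87 and -3.15 (adjusted p = 0.177 and 0.0896). Pde3a, the phosphodiesterase that lowers cAMP, had a change of 0.90 ± 0.60 (adjusted p = 0.266).

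Of 19 tested genes for DNA methylation and chromatin supply, 3 were higher (15.8%) and 4 lower (21.1%) against GV replicate 3 (median 0.53), shares not far from those of all genes, and 2 were higher with 6 libraries. Tet3, the oxidase that acts on methylated DNA in the zygote, was at 70.8, 425 and 97.4 CPM in GV and at 2873, 2249 and 2830.4 in MII (4.56 ± 0.70, adjusted p = 1.45e-05; 4.45 with 6 libraries, adjusted p = 0.031). The stages did not overlap for Tet3, nor for H1foo, the linker histone of oocytes, at 23.6, 561 and 1577 CPM against 16455, 6720.0 and 16826 (2.90 ± 0.75, adjusted p = 0.00395). H1foo did not pass with 6 libraries (4.26, adjusted p = 0.119). Uhrf1, which recruits DNMT1, and Nasp, a histone chaperone, fell by 1.84 and 1.80 on the log2 scale against replicate 3 but did not pass with 6 libraries (adjusted p = 0.903 and 0.676), and Dnmt1, the maintenance methyltransferase, missed the threshold (-1.24 ± 0.50, adjusted p = 0.0592). Among 36 tested transcription factors and members of oocyte gene families, 14 were higher (38.9%) and 19 lower (52.8%) against replicate 3. With 6 libraries 9 were higher and none lower, but 10 higher and 2 lower without TMM factors and 12 and 4 in DESeq2. Tcl1, a cofactor of the AKT kinase, changed by 3.41 ± 0.76 and E330034G19Rik by 3.55 ± 0.68 (adjusted p = 0.119 and 0.0904 with 6 libraries), whereas Fbxw24, an F-box protein of an oocyte cluster, was at 0, 774 and 4641 CPM in GV and at 298, 102 and 138 in MII (-4.90 ± 0.49, adjusted p = 2.19e-08; -3.43 with 6 libraries, adjusted p = 0.157). Reads of the Fbxw, Obox, Tcl1b and Oas1 families may also be split among copies.

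Many genes that any growing cell uses were lower in MII than in GV replicate 3. Of 58 tested nuclear genes of oxidative phosphorylation, 34 were lower and none was higher (58.6% against the 14.2% of all genes), with a median of -2.64. None passed in edgeR with 6 libraries, where the median was -1.51, 11 were lower at an unadjusted p under 0.05 and DESeq2 called 3 lower. DESeq2 called 12 lower against replicate 3 and gave no adjusted p for 19. Cox4i1, a subunit of cytochrome c oxidase, was at 401, 387 and 494 CPM in GV and at 74.5, 95.4 and 18.8 in MII, without overlap (-3.21 ± 0.54, adjusted p = 4.92e-05; -2.34 with 6 libraries, adjusted p = 0.099), while Atp5b, the catalytic subunit of ATP synthase, had a change of 0.10 ± 0.49 (adjusted p = 0.905). Of 78 cytosolic ribosomal protein genes only 18 had the 20 counts needed, and 11 of these were lower against replicate 3 (median -2.80, 5 in DESeq2 with 9 left without an adjusted p) and 1 with 6 libraries. The whole list took 0.368%, 0.234% and 0.346% of counts in GV and 0.0548%, 0.0906% and 0.0401% in MII, so all GV libraries lay above all MII libraries. GV replicate 3 is also the deepest library. The limit of 20 counts thus favors genes high in it, and with them falls against it. The same holds for the oxidative phosphorylation genes and the lists of the next paragraph. Rpl8 was at 755, 309 and 678 CPM in GV and at 63.8, 102 and 25 in MII (-3.65 ± 0.52, adjusted p = 5.52e-06; -2.73 with 6 libraries, adjusted p = 0.0672). Reads of ribosomal protein genes can be shared with processed pseudogenes, which makes their counts uncertain.

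Against GV replicate 3, 11 of 21 chaperones were lower (6 in DESeq2) and none higher, among them Hspa5, the BiP chaperone of the endoplasmic reticulum (-1.67 ± 0.46, adjusted p = 0.00675), and Cct8, a subunit of the chaperonin TRiC (-1.70 ± 0.52, adjusted p = 0.0134). Neither passed with 6 libraries (-0.64 and -0.96, adjusted p = 0.715 and 0.471). Of 22 translation factors 8 were lower and none higher, but 5 lower and 2 higher without TMM factors and 2 lower and 1 higher in DESeq2, which left 5 without an adjusted p. Among them were Eef2, the elongation factor, at 2148, 619 and 516 CPM in GV and 245, 177 and 50.1 in MII (-1.96 ± 0.52, adjusted p = 0.005; -1.97 with 6 libraries, adjusted p = 0.147), and Paip1, a poly(A)-binding protein partner, which did not pass (1.26 ± 0.53, adjusted p = 0.0702). Of 29 proteasome genes 10 were lower (4 in DESeq2) and 1 higher, of 28 mitochondrial ribosomal protein genes 6 were lower (1 in DESeq2, with 19 left without an adjusted p) and 1 higher, and of 7 genes encoded in mitochondrial DNA 2 were lower (none in DESeq2) and none higher. Glycolysis split, with 4 higher and 1 lower of 16. Ldhb, the heart form of lactate dehydrogenase and by far the most counted of the list, fell from 9436 CPM in replicate 3 to 1745, 1199.5 and 1954 (-2.72 ± 0.49, adjusted p = 0.000105; -1.22 with 6 libraries, adjusted p = 0.614), and Ldha, the muscle form, had 7.22 CPM in replicate 3 against 202, 157 and 113 in MII (4.11 ± 0.94, adjusted p = 0.00136). Ldha was at 519 and 271 CPM in GV replicates 1 and 2, above MII, and its change with 6 libraries was 0.40 (adjusted p = 0.82). With 6 libraries the 6 lists of this paragraph together had 1 lower call in the proteasome and 1 higher in glycolysis, Slc2a1, the glucose transporter GLUT1 (0, 0 and 1 counts in GV, 8, 20 and 20 in MII, 5.18, adjusted p = 0.0257).

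Among enzymes and readers of m6A and ac4C, 3 of 15 were higher (20%) and 2 lower (13.3%) against GV replicate 3 (median 0.04), close to the shares of all genes. Thumpd1, the adaptor that NAT10 uses to acetylate tRNA, was at 0, 0 and 10.8 CPM in GV and at 319, 157 and 276 in MII, with no overlap (4.26 ± 0.85, adjusted p = 0.000322; 5.26 with 6 libraries, adjusted p = 0.021). Ythdc1 and Ythdf3, readers of m6A, rose against replicate 3 (2.59 ± 0.62 and 2.52 ± 0.69) and did not pass with 6 libraries (adjusted p = 0.0785 and 0.0616).

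The rise of the largest size with all 6 libraries was in Tnfaip6, which crosslinks the hyaluronan matrix of the expanded cumulus. It had 0 counts in all 3 GV libraries and 83, 31 and 47 in MII, at least 29.2-fold above the limit of 3 counts in GV replicate 3 (adjusted p = 0.021, and 1.17e-05 against replicate 3). Ptx3, another matrix protein of the cumulus, had 1, 0 and 1 counts in GV and 221, 62 and 127 in MII, and Ptgs2, the prostaglandin synthase COX2, 0, 0 and 1 against 37, 8 and 14. With 6 libraries these 3 passed of 5 tested cumulus expansion genes, beside 6.18% of all genes called higher. They reached the limit of 20 counts through their MII counts. Of the 13 genes listed, 8 had under 20 counts and were not tested, 4 of them with 0. The list as a whole took 0.0236%, 0.0058% and 0.0202% of counts in GV and 0.254%, 0.120% and 0.164% in MII. Granulosa and cumulus markers had none higher and 2 lower of 11 tested against replicate 3, and the theca and luteal steroid genes none higher and 1 lower of 6. Inha, inhibin alpha, was at 4698, 1644 and 1158 CPM in GV and 1159.8, 525 and 207 in MII (-1.14 ± 0.53, adjusted p = 0.102), and Amh, anti-Müllerian hormone, had 67, 13 and 76 counts in GV and 4, 2 and 0 in MII (-4.67 ± 0.74, adjusted p = 2.4e-05; -4.89 with 6 libraries, adjusted p = 0.0218). The part of follicle cells in these changes was not tested. Spp1, the secreted protein osteopontin, rose with a similar profile, from 1, 1 and 3 counts to 350, 133 and 319 (6.94 ± 0.90, adjusted p = 1.48e-06; 7.10 with 6 libraries, adjusted p = 0.021).

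Further genes with the largest rises had no count in any GV library. They reached the limit of 20 counts through MII alone, so a fall could not be found for them. Zfp616, a zinc finger gene, had 32, 23 and 36 counts in MII and was at least 17-fold above the limit of GV replicate 3, Hus1, of the DNA damage checkpoint clamp, at least 10.3-fold, and Arntl, the clock factor BMAL1, at least 5.80-fold. Cdk2ap2 and Usp29 were at least 8.45-fold and 6.95-fold higher. Other genes were at 0 in replicate 3 but had counts in another GV library, so their changes with 6 libraries were smaller. Epsti1 had 0, 2 and 0 counts in GV and 71, 29 and 83 in MII, at least 33.7-fold above the limit of replicate 3, with a log2 change of 5.97 over 6 libraries (adjusted p = 0.021). Ing3, a subunit of the NuA4 acetyltransferase, had 2, 0 and 0 counts in GV (at least 19.5-fold, 5.18 over 6 libraries), Nupr1, a stress-induced nuclear protein, 3, 0 and 0 (at least 19-fold, 4.56) and Bmpr1a, a receptor for bone morphogenetic proteins, 2, 0 and 0 (at least 14.2-fold, 4.74). Tcl1b3, a relative of Tcl1, had 0, 0 and 2 counts in GV and 77, 49 and 84 in MII (5.58 ± 0.87, adjusted p = 2.15e-05; 6.5 with 6 libraries, adjusted p = 0.021).

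The falls called with 6 libraries mostly followed GV replicates 1 and 2. Stx16, a syntaxin of the trans-Golgi, had 31, 1289 and 6 counts in GV and none in MII, and Igbp1b 138, 292 and 5 and none in MII. Fatty tissue and muscle genes were among them, with 26, 3 and 2 counts of Cfd, the adipocyte protein adipsin, and 27, 4 and 2 of Myl9, a smooth muscle myosin light chain, against none in MII. Fabp4, the fatty acid binding protein of adipocytes, was at 3093, 561 and 3.61 CPM in GV and at 0, 6.82 and 6.26 in MII (-6.69 with 6 libraries, adjusted p = 0.0274). In all, 3 of 11 tested adipocyte markers and 1 of 6 smooth muscle markers passed as lower with 6 libraries, beside 1.05% of all genes, and 5 and 4 of them without TMM factors and in DESeq2. Without GV replicates 1 and 2 neither Myl9 nor any of the listed markers called in the main 6-library fit passed, though other members of both lists did. The adipocyte markers then had a median change of -0.40 with 3 of 11 positive, and the smooth muscle markers -0.36 with 3 of 6 positive. With 6 libraries the medians were -2.56 and -2.94, with 0 positive in both lists. The part of other cell types in these changes was not tested. The largest falls against replicate 3 alone were in other genes. Cog6, of the Golgi tethering complex, had 0, 1 and 56 counts in GV and none in MII, at least 33.3-fold between replicate 3 and the limit over MII (adjusted p = 8.3e-06). Psmg4, a proteasome assembly chaperone, was at least 16.1-fold lower, without a call over 6 libraries (adjusted p = 0.0713), and 2410015M20Rik at least 14.9-fold, the latter with 5, 5 and 25 counts in GV and a call in both comparisons (adjusted p = 0.00113 and 0.0275). Amhr2, the receptor of anti-Müllerian hormone, had 7, 5 and 19 counts in GV and none in MII and also passed in both.

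The genes that took the most counts were not all among those that changed. Vsig8, which encodes a membrane protein with immunoglobulin domains, held 132460.0, 198708 and 182301 CPM in GV and 68682, 131851 and 133585 in MII, with overlapping ranges (-0.89 ± 0.78, adjusted p = 0.41). Mroh6 was at 14660.1, 10578 and 49047 CPM in GV and at 41257, 112093 and 96245 in MII (0.58 ± 0.80, adjusted p = 0.621). Klhl42, a substrate adaptor of a ubiquitin ligase, fell from 6775, 7059 and 23011 CPM to 213, 757 and 382, each GV library above each MII library (-5.89 ± 0.58, adjusted p = 1.28e-08; -4.58 with 6 libraries, adjusted p = 0.0698). AU022751, on the X chromosome, rose from 47.2, 561 and 491 CPM to 18950.1, 10175 and 27114 (5.09 ± 0.90, adjusted p = 8.04e-05; 6.04 with 6 libraries, adjusted p = 0.0479). Uchl1, a ubiquitin hydrolase abundant in oocytes, changed by -3.59 ± 0.52 against replicate 3 (adjusted p = 6.24e-06; -2.03 with 6 libraries, adjusted p = 0.443).

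Sequence features that the comparison did not use differed between genes that rose and genes that fell. The element TTTTAT or TTTTAAT stood in the last 100 bases of the 3′UTR in 291 of 708 genes higher in MII than in GV replicate 3 (41.1%) and in 56 of 596 lower genes (9.40%), beside 22.0% of the 4528 tested genes with a 3′UTR of at least 100 bases and 17.8% of all genes with one. Neither word contains the other, and only the transcript strand was searched. With all 6 libraries the element was in 121 of 287 higher genes (42.2%) and 6 of 47 lower genes (12.8%). Ranked by change against replicate 3, the share went from 9.71% in the lowest of 10 equal bins of genes to 40.9% in the highest. The median change was 1.29 in the 997 genes with the element and -0.28 in the 3531 without. Of the dormant mRNAs 8 of 16 held it, and of the oxidative phosphorylation genes 3 of 41. Mos and Ccnb1, which rose, held neither word in this window of the annotated transcript. For genes grouped by the WT change from GV to MII, the element was in 37.7% of higher and 10.3% of lower genes. A match is a description of the letters and not a measured site. These shares carry no test, since genes are not replicates.

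**Figure D4:**
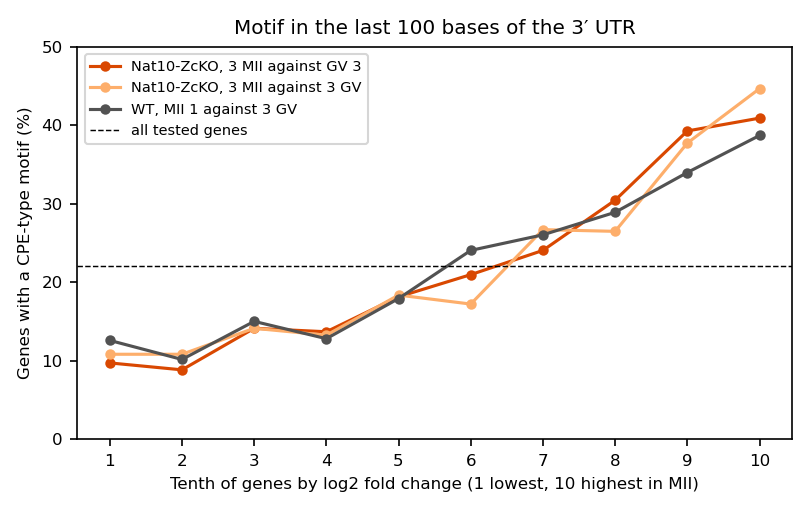
Percent of genes with TTTTAT or TTTTAAT in the last 100 bases of the 3′UTR (y axis) in 10 equal bins of the tested genes ranked by log2 change from GV to MII (x axis, lowest to highest), for Nat10-ZcKO against GV replicate 3, for Nat10-ZcKO with all 6 libraries and for WT. Against replicate 3 the share goes from 9.71% to 40.9%, beside 22.0% of all tested genes (dashed line).

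Lengths depended on the GV libraries used. The median 3′UTR was 1102 bases in genes higher in MII than in GV replicate 3 and 418.5 in lower genes, but 1028 and 879.5 bases with all 6 libraries, beside 911.5 in all tested genes. Median CDS lengths were 1662 bases in higher and 1344 in lower genes against replicate 3, and in the other order, 1535.5 and 1704, with 6 libraries, beside 1671 in all tested genes. In WT GV oocytes, the ratio of CPM in the ac4C library to that in the IgG library had a median of 1.41 in 589 genes higher and 0.839 in 594 lower against replicate 3, of 1.46 in 254 higher and 0.684 in 19 lower with 6 libraries, and of 1.17 in all 3677 genes with enough counts. That assay had 1 library of each kind, and 46.7% of the IgG fragments fell on no feature, so the ratios have no replicate check. For genes grouped by the WT change from GV to MII the order was the same, with medians of 1.35 in higher and 0.980 in lower genes.

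**Figure D5:**
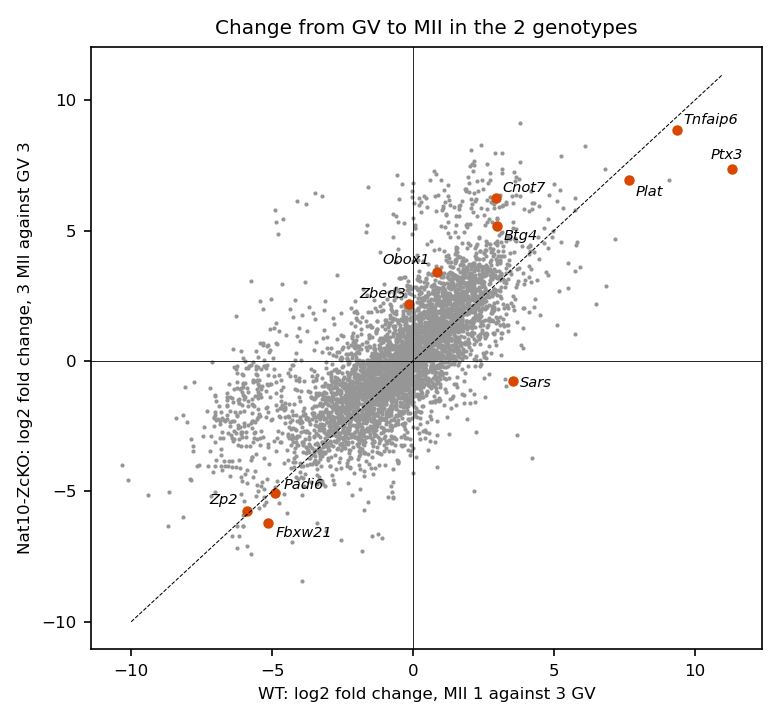
Log2 change from GV to MII for each of 4851 genes in WT (3 GV libraries and MII replicate 1, x axis) and in Nat10-ZcKO (GV replicate 3 and 3 MII libraries, y axis), with a dashed line of equal changes and named genes in orange. Of the genes, 81.5% changed in the same direction, with a Pearson correlation of 0.70. Sars lies to the right of the dashed line, with changes of 3.56 in WT and -0.76 in Nat10-ZcKO.

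The WT libraries give the same passage without the deletion. WT MII replicate 2 held 4815 counts, and with both WT MII libraries edgeR called 0 genes between the WT stages, with 577 at an unadjusted p under 0.05. Without that library, and with MII replicate 1 as a lone sample, 1658 of the 4851 genes passed (34.2%), 677 higher (14.0%) and 981 lower (20.2%). Across genes the changes in WT and in Nat10-ZcKO against GV replicate 3 had a Pearson correlation of 0.70 and a Spearman correlation of 0.76, from separate libraries, as a description over genes that are not independent. Of the 735 genes higher in Nat10-ZcKO, 462 were called higher in WT and 3 lower, and of the 687 lower genes 507 were called lower and 0 higher. The dormant mRNAs gave 16 of 16 higher in WT with a median of 2.54, beside 15 of 16 and 3.93 in Nat10-ZcKO, and the oxidative phosphorylation genes 31 of 58 lower with a median of -2.09, beside 34 and -2.64. The median over all genes was -0.31 in WT and -0.01 in Nat10-ZcKO. Plat changed by 7.67 in WT and 6.96 in Nat10-ZcKO, Zp2 by -5.89 and -5.73, and Padi6 by -4.90 and -5.05. Zp2 and Padi6 are among the oocyte markers by which GV replicate 3 was kept. That choice favors their falls in Nat10-ZcKO, so these falls are not taken as support.

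Whether the change from GV to MII differed between the genotypes was tested by the interaction of stage and genotype. Over all 11 libraries, 14 of 6556 genes passed (0.214%), 1 in the positive direction (0.0153%) and 13 in the negative (0.198%), and 368 were at an unadjusted p under 0.05. Without WT MII replicate 2 no gene passed, with 253 at an unadjusted p under 0.05. With 8 libraries, from which WT MII replicate 2 and GV replicates 1 and 2 of Nat10-ZcKO were left out, 1 gene passed (0.0153%), with 437 at an unadjusted p under 0.05 and no member of any list among the calls. That gene was Sars, the cytosolic seryl-tRNA synthetase, named after its values were seen. It was at 7026, 419 and 1914 CPM in WT GV, at 41448 CPM in WT MII replicate 1 and 2492 CPM (12 counts) in WT MII replicate 2, at 4297, 716 and 206 CPM in Nat10-ZcKO GV and at 218, 143 and 68.9 CPM in Nat10-ZcKO MII. WT MII replicate 1, the only WT MII library in that test, lay above all others, and the difference between the genotypes was -4.43 (adjusted p = 0.00755). Over all 11 libraries, with WT MII replicate 2 inside the range of WT GV, it was -5.12 and did not pass (adjusted p = 0.736). The differences given next for Zbed3, Cnot7 and Btg4 come from the test with 8 libraries. Zbed3 had a change of -0.14 in WT and 2.20 in Nat10-ZcKO, and the difference did not pass (2.23 ± 0.65, adjusted p = 0.376). For Cnot7 the difference was 3.17 ± 1.0 (adjusted p = 0.449) and for Btg4 2.09 ± 0.73 (adjusted p = 0.544). The 3 genes were chosen for this after their values were seen. A p above the threshold does not show that the genotypes change alike.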

How the data were processed

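Ribo-seq libraries were made from Nat10-ZcKO and WT oocytes, and per the labels the authors deposited, for each library, counts per gene on the CDS, as whole numbers without normalization. The acRIP-seq files also hold deposited counts per gene. The submitters' processing notes name mm10, cutadapt, STAR and HTSeq, with versions, strand setting and treatment of PCR duplicates not given in the sources used here. Genes with 20 or more counts over the 6 Nat10-ZcKO libraries were tested with edgeR 4.0.16 in R 4.3.3 (glmQLFit and glmQLFTest, TMM factors, a prior count of 0.125, Benjamini-Hochberg adjustment over all genes tested, adjusted p under 0.05), with all 6 libraries and with GV replicate 3 alone. The interaction of stage and genotype was fitted over all 11 Ribo-seq libraries with the same count limit. SEs were obtained as the absolute log2 change over the root of the F statistic. DESeq2 1.42.0, other scalings and filters, a replicate block and leaving out each library were alternatives. The fits were also run on simulated counts with known changes, and the outcome is not reported here.

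The genes named are up to 12 with the largest change in each direction and comparison, up to 5 in each direction of the interaction, the 10 with the most counts, Nat10, and up to 5 members of each list with the most counts. With 6 libraries the largest changes were taken only from genes whose GV replicate 3 CPM lay outside the MII range on the same side. These were 300 of the 300 higher and 44 of the 51 lower genes. Other members named were chosen after their values were seen. The lists and the comparison were chosen with earlier results of these data known. Same-numbered samples of both stages did not deviate together (correlations of 0.12, -0.00 and 0.04 for replicates 1, 2 and 3), so no pairing was used. Of 22442 listed genes, coordinates, UTRs and sequences came from GENCODE M21 on GRCm38, matched by gene identifier. Ratios of ac4C over IgG used genes with 20 or more counts in the pair.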

Additional observations from a re-analysis of the deposited data

Results flagged for a closer look

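The interaction of stage and genotype over all 11 libraries marked 6 of the named genes as changing differently between the genotypes from GV to MII, each by edgeR's quasi-likelihood test. Zfp692, a zinc finger gene, had a difference of 10.45 on the log2 scale (adjusted p = 0.0203), with 0 counts in the Nat10-ZcKO GV libraries, 12, 8 and 9 in Nat10-ZcKO MII, 121, 3 and 6 in WT GV and 4 and 0 in WT MII. Plch1, a phospholipase C, had -11.38 (adjusted p = 0.00964), with 2, 75 and 1 counts in Nat10-ZcKO GV, none in Nat10-ZcKO MII, 0, 1 and 0 in WT GV and 5 and 0 in WT MII. Fech, ferrochelatase, had -10.16 (adjusted p = 0.00565), with 35 counts in WT MII replicate 2. Gm4894 had -10.91 (adjusted p = 0.00565), with 31 counts in that library. Setbp1 had -11.56 (adjusted p = 0.0104), with 8 counts there, and Gpd1, a glycerol phosphate dehydrogenase, -8.59 (adjusted p = 0.0104), with 13 there and 47, 8 and 0 in Nat10-ZcKO GV. WT MII replicate 2 holds 4815 counts in all, and without it none of the 6 passed. In the test without it and without GV replicates 1 and 2 of Nat10-ZcKO, which hold few oocyte marker counts, none passed either, the difference of Gpd1 turned to 6.02 and that of Setbp1 to 0, and those of Zfp692, Fech, Gm4894 and Plch1 were 9.72, -2.44, -0.80 and -6.66.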

How the results depend on the processing

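With all 6 libraries the count of 351 genes fell to 200 when the spread was estimated over all 11 libraries, and ranged from 0 to 982 when each library was left out. It was 318 to 498 under the library sizes, scaling without the most counted genes, DESeq2 and other filters. The replicate block gave 325 genes, although the numbers do not pair the samples. Against GV replicate 3 alone the 1422 genes became 756 in DESeq2, which left 1976 without an adjusted p, and 952 to 1592 without single MII libraries, and no replicate block was possible with 1 GV library. For the interaction the 14 genes became 66 by library sizes, 3 in DESeq2, 7 with 50 or more counts, 1 with 8 libraries and 0 with the replicate block (249 at an unadjusted p under 0.05), and 0 to 981 without single libraries, with 981 without WT MII replicate 1. No named gene called in either Nat10-ZcKO comparison reversed in the repeats of that comparison. Between the comparisons a few signs differed, as for Pttg1. Of 477 repeats for genes called with 6 libraries 236 kept the call and 241 lost it, and of 560 against replicate 3 alone 518 kept it and 42 lost it. Across library sizes, scaling without the most counted genes and DESeq2, the medians of the lists changed sign for the anaphase-promoting complex in both comparisons (0.09 to -0.32 with 6 libraries) and, with 6 libraries, for glycolysis (0.47 to -0.21) and for DNA methylation and chromatin (0.27 to -0.13), and for no other tested list. Of 168 repeats of list shares 78 moved by more than the spread of their group. Depth limits a gene in GV replicates 1 and 2 to 70.8 and 58.0 CPM at 3 counts.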
